A study of Mus musculus with 72 samples.

Results

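The chemokines and their receptors were followed through the 3 chambers of the adult mouse heart after disturbance of the aryl hydrocarbon receptor (AHR) before birth. The family was taken by gene symbol, as the protein-coding rows whose mouse symbol is Ccl, Cxcl, Ccr, Cxcr, Cx3cl or Cx3cr followed by a number, together with Xcl1, Xcr1 and the atypical receptors Ackr1 to Ackr4. This gave 62 of the 24237 rows of the count table, of which 39 were ligands, 19 signaling receptors and 4 atypical receptors. A row named Cxcl11 matched the name but is annotated as a pseudogene in these mice and was left out.

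Chemokines are small secreted proteins that bind glycosaminoglycans on cell surfaces and guide leukocytes along their gradients. Their receptors are seven-helix proteins coupled to inhibitory G proteins, whereas the atypical receptors bind the same ligands without G protein signaling and remove or transport them. In the heart, Cxcl12 and its receptors Cxcr4 and Ackr3 take part in the building of vessels and valves, Ccl2 and Ccr2 recruit monocytes, Cx3cr1 marks resident macrophages, and Ccl21 draws cells into lymphatic vessels.

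RNA was sequenced from right atrium, left atrium and ventricles of male and female C57BL/6J mice in 4 groups, giving 24 groups of 3 libraries each and 72 libraries in all. Naive Ahr+/+ mice were the controls, Ahr-/- mice carried the constitutive deletion of the receptor, and the exposed groups were Ahr+/+ offspring whose dams received the dioxin TCDD, the best known ligand of AHR, in corn oil by gavage at 0.1 µg/kg (low dose) or 1 µg/kg (high dose). The labels place the first gavage at day 13.5 of gestation and the last at day 18.5, and the age at 9 months, while the methods give earlier days of gestation and about 10 months, and the labels' doses carry no unit. The labels also list TCDD as the treatment of the naive and Ahr-/- libraries, and call the cells cardiomyocytes although whole chambers were sampled. The chambers came from the same hearts, but the labels do not link the libraries of a mouse, so that every p-value below measures the spread between libraries and treats them as independent.

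Library totals were 11873417 to 28789382 counts (median 19231739), so that 3 counts, taken as the floor of detection, stood for 0.0955 to 0.259 CPM (counts per 1e6 counts of the library, after TMM, edgeR's trimmed-mean scaling). In 20 of the 72 libraries marker genes went against the label: 8 by their sex-linked genes and 16 by Myl4, the atrial myosin light chain, which was under 100 CPM in an atrial library or at least 100 CPM in a ventricular one, 4 of them by both. The other 52 libraries comprised 18 right atrial, 18 left atrial and 16 ventricular ones. Ahr itself read 2.35 to 8.67 CPM in the 18 libraries labelled Ahr-/- and 5.09 to 34.0 CPM in the rest, so that the ranges overlapped. Bmp10, a growth factor made by right atrial muscle, was under 100 CPM in 11 of 24 right atrial libraries and at or above that level in 4 of 24 left atrial ones. All 8 libraries against their sex label lay among numbers 49 to 72, where the same 3 labels failed in all 4 groups. Right atria labelled female (50, 56, 62 and 68) read at most 0.989 CPM of the sex-linked Xist and 2.52 of Bmp10. Left atria labelled male (51, 57, 63 and 69) read at most 4.93 CPM of Myl4. Ventricles labelled male (53, 59, 65 and 71) read 208 to 295 CPM of Xist and 647 to 4163 of Myl4. Whether labels were exchanged was not tested. Groups are therefore named as labelled. Several results that rest on doubted libraries are given with and without them, while DESeq2 was always run on all libraries of its groups.

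Counts ranged over several orders of magnitude within the family. A count was found in every library for 30 of the 62 members, and 34 averaged at least 1 CPM, among them 23 ligands, 8 signaling receptors and 3 atypical receptors. At the other end, 11 members averaged under 0.1 CPM, and Ccl1, Ccl26 and Cxcr1 never exceeded 3 counts in any library. Xcl1, the ligand of Xcr1 made by lymphocytes, averaged 0.0619 ± 0.125 CPM (SD, n = 72) and exceeded 3 counts in 8 libraries. A value at or below the floor is not evidence that a gene is silent.

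The rows of Ccl21, the lymphatic ligand of Ccr7, were among the highest ligand rows and could not be separated from one another. Ccl21c and Ccl21d held identical counts in 72 of 72 libraries, and Ccl21b matched them in 69, with a difference of at most 12 counts in the other 3. The Ccl21a row held between 0.25 and 0.429 of the Ccl21b count, with a median of 0.313. Every count of the Ccl21b, Ccl21c and Ccl21d rows was a multiple of 4. How reads that map to several copies were counted is not given, so that the level of these rows against other rows is uncertain. Rows of the predicted genes Gm10591 and Gm13304 carried the counts of Ccl21c and Ccl21d, and Gm1987 carried those of Ccl21a. Rows with equal counts are therefore 1 measurement, and the Ccl21 rows are reported as uncertain between copies. The coding sequences show how little there is to tell them apart. In the GENCODE vM21 models on GRCm38 both are 402 bases long and 99.5% identical, and they differ at T84A and C194T, written as the base in Ccl21a, its position counted from 1 at the A of the start codon, and the base in Ccl21b. The stretch from coding base 44 to 234, which spans chr4:42773503-42773875 on the minus strand for Ccl21a and chr4:42255810-42256182 on the plus strand for Ccl21b with introns removed, is shown 5′ to 3′ with the differing bases in capitals.
Ccl21a: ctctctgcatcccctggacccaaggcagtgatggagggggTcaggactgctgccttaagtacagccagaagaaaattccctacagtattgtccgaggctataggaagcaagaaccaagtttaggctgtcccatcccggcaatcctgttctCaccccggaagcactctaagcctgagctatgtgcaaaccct
Ccl21b: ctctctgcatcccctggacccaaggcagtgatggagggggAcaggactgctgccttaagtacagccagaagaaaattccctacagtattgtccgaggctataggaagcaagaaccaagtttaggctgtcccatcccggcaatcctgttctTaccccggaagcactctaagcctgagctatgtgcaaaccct
Of the 353 windows of 50 bases, the read length used, that fit into this coding sequence, 253 were identical between the copies and 100 covered a difference.

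Levels of different genes were set side by side per kilobase, and the divisor mattered. The counts are stated to cover coding regions, whereas exon length also takes in the untranslated ends, so that CPM per kilobase of coding sequence and of exon are both given and an order is stated only where it held on both. Cxcl12 averaged 228 ± 89.0 CPM (SD, n = 72), which is 614 ± 240 CPM per coding kilobase and 27.9 ± 10.9 per exon kilobase. On the coding scale it was the highest member, while on the exon scale the Ccl21b and Ccl21d rows (195 and 90.2, against 197 each on the coding scale) lay above it. Ccl6, a macrophage ligand of Ccr1, averaged 71.9 ± 57.5 CPM per coding and 13.9 per exon kilobase. Cxcl13, the ligand that attracts B cells through Cxcr5, averaged 46.9 ± 65.2 and 13.3. Ccl27b stood at 18.2 and 15.4 CPM per kilobase, although its counts equaled those of 2 other annotated copies. Among the receptors the scavenger Ackr3 was far above the rest on both scales, at 98.3 ± 27.7 CPM, 90.5 ± 25.5 per coding kilobase and 29.4 ± 8.26 per exon kilobase. Cxcr4, the signaling receptor for Cxcl12, stood at 7.88 and 4.69 CPM per coding and exon kilobase and Cxcr2, the receptor of neutrophil attractants, at 10.7 and 3.79, so that their order turned with the divisor. Ackr4, an atypical receptor that clears Ccl19 and Ccl21, stood at 13.2 ± 4.35 and 2.58 ± 0.848, and the monocyte receptor Ccr2 at 9.39 and 1.55. Below these came the inflammatory scavenger Ackr2 (3.80 and 1.38), the cross-presenting dendritic cell receptor Xcr1 (4.17 and 0.950), the fractalkine receptor Cx3cr1 (4.02 and 0.947), and Cxcr6, which binds Cxcl16 (1.38 and 0.769). The means of Xcr1 and Cx3cr1 differed by less than the SD over libraries on both scales.

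**Figure D1:**
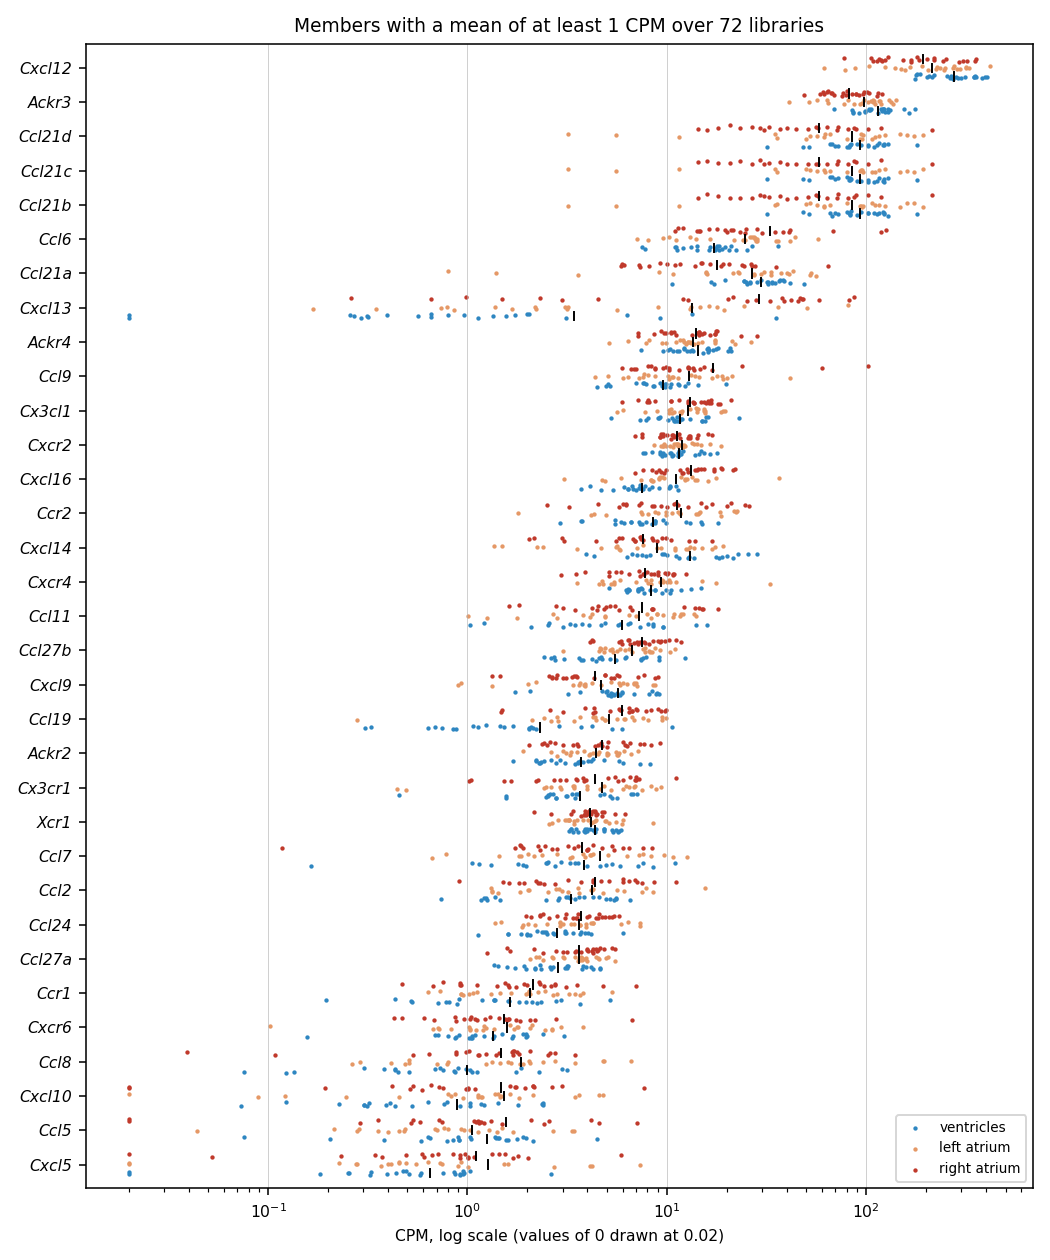
CPM, on a log axis and not divided by length, of 33 of the 34 members with a mean of at least 1 CPM, with one point per library colored by chamber and a black bar at each chamber mean. Members are ordered by mean over the 72 libraries, and Cxcl13 spreads most widely, with its ventricular points lowest.

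Among the textbook pairs of ligand and receptor, the 6 given first held the ligand above the receptor on both scales, and they are not a full count of such pairs. The membrane-bound ligand Cx3cl1 averaged 9.52 ± 2.92 CPM per coding kilobase against 4.02 ± 2.13 for Cx3cr1, and 3.18 against 0.947 per exon kilobase. Cxcl16 averaged 14.4 ± 7.01 CPM per coding kilobase against 1.38 ± 0.876 for Cxcr6. Ccl19 averaged 11.6 ± 7.44 against 0.342 ± 0.445 for Ccr7, which guides lymphocytes and dendritic cells, and 5.16 against 0.196 per exon kilobase. Cxcl9, an interferon-induced ligand, averaged 13.0 ± 5.75 CPM per coding kilobase against 0.627 ± 0.557 for its receptor Cxcr3. The others were Cxcl12 with Cxcr4 and Cxcl13 with Cxcr5, whose receptor averaged 0.735 ± 0.841 CPM per coding kilobase. The pair of Xcl1 and Xcr1 ran the other way on both scales, with Xcl1 at 0.182 ± 0.366 CPM per coding kilobase. The order of the monocyte ligand Ccl2 and Ccr2 turned with the divisor, at 8.94 ± 5.85 and 9.39 ± 5.01 CPM per coding kilobase but 3.49 ± 2.28 and 1.55 ± 0.830 per exon kilobase. The lymphocyte and platelet ligand Ccl5 averaged 4.72 ± 4.41 and Cxcl10, also induced by interferon, 4.39 ± 4.31 CPM per coding kilobase, with SDs nearly as large as the means. The mean of Cxcl10 also lay above that of its receptor Cxcr3 (0.627) on that scale. Ackr1, the venular and erythroid binding protein, averaged 0.759 ± 0.801 CPM per coding kilobase, the lowest of the atypical receptors on both scales. Reads of Ackr1 can also fall in exons of Cadm3, and those of Ackr4 in exons of Acad11, because these genes overlap and the strand handling of the counting was not stated.

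The relative spread over all libraries separated steady members from variable ones. Cxcr2 had the smallest coefficient of variation among members with a mean of at least 1 CPM (22.0%), followed by Xcr1 (24.5%), Ackr3 (28.1%) and Cx3cl1 (30.6%). Cxcl13 had the largest (139%), with Cxcl5 at 124% and Ccl9, a macrophage ligand of Ccr1, at 101%. These values mix chamber, sex, group and library differences.

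The chamber comparison asked which members differed between atria and ventricles over all groups. In such bulk samples fewer cells of a type cannot be told apart from less RNA per cell. Fits used edgeR's quasi-likelihood test with labelled sex and treatment as further terms. A member was called when its p-value, adjusted by Benjamini-Hochberg over all genes tested, was under 0.05. Over all 72 libraries the sex term was wrong by sex-linked genes in right atria 50, 56, 62 and 68 and ventricles 53, 59, 65 and 71. Between right atrium and ventricles 16 of 45 members tested were called, 9 higher and 7 lower in the atrium, against 31.8% of all 15824 genes. With the Ccl21b, Ccl21c and Ccl21d rows counted once, the calls were 14 of 43, 9 higher and 5 lower. The median log2 difference was 0.31 over the members and 0.03 over all genes. Ligands made up 14 of the calls (of 27 tested), and of the 4 atypical receptors 1, Ackr3, was called. Between left atrium and ventricles 5 of 45 were called, 4 higher and 1 lower, against 18.9% of all genes. Both comparisons use the same ventricular libraries, and 4 members (Cxcl13, Ccl19, Cxcl16 and Cxcl14) were called in each with the same sign, which is 4 of 16 and 4 of 5 calls.

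Cxcl13 differed most. It ranged from 0.26 to 87.2 CPM in the 24 right atrial libraries (median 26.7), from 0.17 to 81.4 in the left atrial ones (median 4.40) and from 0 to 35.2 in the ventricular ones (median 0.88). The medians were well apart while the ranges overlapped along most of their length. The log2 difference from ventricles was 3.45 in the right atrium (SE 0.64, edgeR adjusted p = 7.39e-05) and 2.45 in the left (SE 0.65, edgeR adjusted p = 0.00701). Without the libraries against their label the ventricular range narrowed to 0 to 2.04 CPM (median 0.61, n = 16). The right atrial libraries then ran from 0.26 to 87.2 (median 38.3, n = 18) and the left atrial ones from 1.68 to 81.4 (median 13.2, n = 18), and the log2 differences were 5.60 and 4.48. In each atrium 17 of 18 libraries then lay above every ventricular one.

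Ccl19, the homeostatic ligand of Ccr7, had medians of 6.16 CPM in right atrium (range 1.48 to 9.87), 4.82 in left atrium (0.28 to 9.90) and 1.61 in ventricles (0.31 to 10.6). Its log2 difference from ventricles was 1.44 in right atrium (SE 0.27, edgeR adjusted p = 8.15e-05) and 1.26 in left atrium (SE 0.28, edgeR adjusted p = 0.00206). Without the doubted libraries the right atrial libraries read at least 2.59 CPM, the left atrial ones at least 2.10 and the ventricular ones at most 2.21 CPM, so that 18 of 18 right and 17 of 18 left atrial libraries lay above every ventricular one. Cxcl16, the membrane-bound ligand of Cxcr6, ranged from 6.93 to 22.0 CPM in right atrium (median 12.7), from 3.06 to 36.5 in left atrium (median 9.39) and from 3.70 to 11.3 in ventricles (median 7.34). It was 0.83 and 0.55 higher on the log2 scale in right and left atrium. Ccl8, a monocyte attractant, was 0.90 higher in left atrium and was not called in right atrium.

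Cxcl12, Ackr3 and Cxcl14 went the other way. Cxcl12 ranged from 77.4 to 355 CPM in right atrium (median 175), from 61.3 to 418 in left atrium (median 225) and from 176 to 402 in ventricles (median 270). The lowest ventricular library thus read about as much as the median right atrial one, and the upper ends of the ranges were alike. Its log2 difference was -0.54 in right atrium (SE 0.16, edgeR adjusted p = 0.00763) and -0.35 in left atrium, where it did not pass (edgeR adjusted p = 0.115). Ackr3 ranged from 48.7 to 120 CPM in right atrium (median 79.3), from 41.1 to 142 in left atrium (median 104) and from 69.3 to 176 in ventricles (median 116). It was lower in right atrium by a log2 difference of -0.48 (SE 0.11, edgeR adjusted p = 0.000419) and did not pass in left atrium (-0.22, adjusted p = 0.127). Cxcl14, an orphan ligand of many epithelia, was lower in both atria (-0.76 and -0.60). Other ligands called in the right atrial comparison were Ccl27b (0.53), Ccl6 (0.74), Ccl24, Ccl9 and Ccl27a, all higher, and the Ccl21 rows, all lower (-0.80 for Ccl21a and -0.76 for the other 3).

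**Figure D2:**
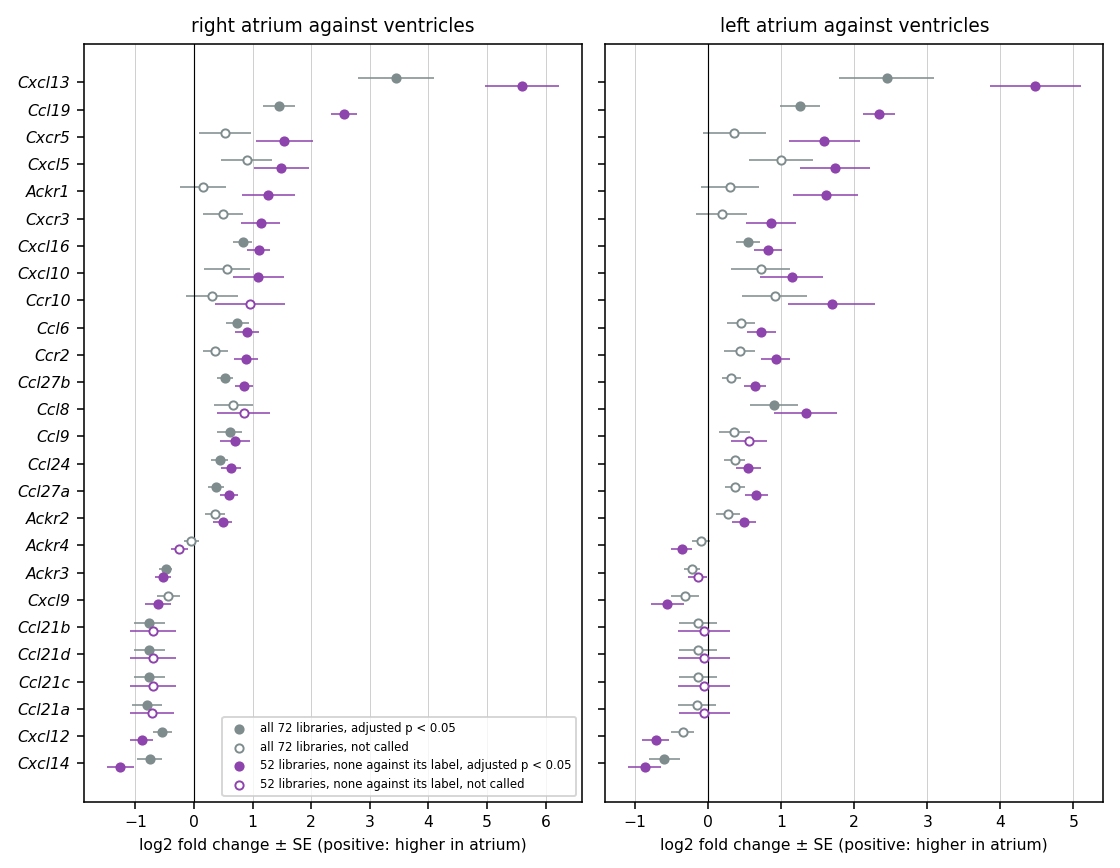
Log2 fold changes ± SE of members called in at least one of these fits, for right (first panel) and left (second panel) atrium against ventricles, in gray over all 72 libraries and in purple over the 52 not against their label; filled points passed an adjusted p of 0.05 and open points did not. Cxcl13 lies farthest above 0 in both panels, and Cxcl12 and Cxcl14 lie below it in both.

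The calls shifted once the 20 doubted libraries were left out. Right atrium against ventricles then gave 20 called members, 16 higher and 4 lower, with 50.2% of all genes called. Left atrium gave 21, 17 higher and 4 lower, with 48.1% of all genes called. Of the 16 calls over all libraries 12 were kept, and the 4 lost were the Ccl21 rows, while the 5 left atrial calls were all kept. Among those that passed in both atria were Cxcl12 (log2 differences -0.89 and -0.72), the monocyte receptor Ccr2 (0.88 and 0.92), Cxcr3 (1.14 and 0.86), Cxcr5 (1.54 and 1.59), Ackr1 (1.27 and 1.61) and Ackr2 (0.49 and 0.49). Ventricular medians of Cxcr3, Cxcr5 and Ackr1 were 0.41, 0.39 and 0.34 CPM (n = 16), not far above the floor. Of the libraries highest in B cell genes, described below, the atrial ones (7, 9, 15 and 21) were kept here and ventricular library 53 was left out. In naive mice alone edgeR called 0 members in either atrium, where 0.00664% (right) and 0% (left) of all genes were called, with 6 and 4 members at an unadjusted p under 0.05. Of 15060 genes 2869 and 1771 passed that unadjusted limit, and 40 members were tested. With libraries 49 to 72 alone, 1 library of each group, it also called 0, where 0.0815% and 0% of all genes were called, with 7 and 0 members at an unadjusted p under 0.05. Of 15957 genes 729 and 258 passed that unadjusted limit. In this set every left atrial and ventricular library of males went against its chamber label, so that it cannot test the chambers as labelled. DESeq2 was run only over all libraries and called 17 members in right atrium (15 with the equal Ccl21 rows counted once), where 31.6% of all genes were called, and 6 in left atrium, where 20.8% were. In naive mice the log2 difference of Cxcl13 was 2.24 in right and 0.97 in left atrium, that of Ccl19 1.30 and 0.97, and that of Cxcl12 -0.63 and -0.33.

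Other genes moved with the chambers. Summed over the marker list, macrophage genes had medians of 344, 329 and 217 CPM in right atrium, left atrium and ventricles of the 52 libraries, fibroblast genes 2162, 2173 and 1201, and mesothelium genes 130, 92.1 and 19.7 CPM. Adipocyte genes read 25.6, 71.8 and 1.6 CPM, while endothelium genes (907, 828 and 951) and lymphatic endothelium genes (96.7, 99.0 and 95.5) were nearly level as sums. Single endothelial genes were called both ways in right atrium against ventricles over all libraries. Lyve1 (0.93 on the log2 scale), Pdpn (0.82), Vwf (1.15), Pecam1 (0.31) and Emcn (0.37) were higher. Mmrn1 (-0.69), Cdh5 (-0.37) and Kdr (-0.44) were lower. Over all libraries 8 of 10 macrophage markers and 5 of 5 mesothelium markers were called higher in right atrium than in ventricles. The monocyte marker Ly6c2 was called lower there (-0.61). The Y-linked genes Ddx3y (4.02), Eif2s3y (3.94), Uty (3.44) and Kdm5d (3.10) were called higher there, in a fit whose sex term used the labels. The part of these marker genes in the chamber differences of the chemokines was not tested. Downstream of the receptors, 16 of 37 genes of chemokine signaling were called higher and 3 lower in right atrium than in ventricles, against 31.8% of all genes called in either direction, and 11 and 1 in left atrium, against 18.9%. The G protein subunit gene Gng2 (2.59), the focal adhesion kinase relative Ptk2b (1.73), the receptor kinase gene Grk3 (1.15) and the arrestin gene Arrb1 (0.87) were higher on the log2 scale in right atrium, and the small GTPase gene Rhoa was lower (-0.25). Among 15 inducers of chemokines tested 3 were called higher and 0 lower in right atrium, a smaller share than the 31.8% of all genes. Of 9 genes that clear or present chemokines 4 were higher, including the peptidase Dpp4 (1.36), which trims the amino terminus of Cxcl12, and 1 was lower.

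The promoters of 4 members named above are shown, of Cxcl13 and Ccl19, which had the largest differences among those called in both atria, and of the pair Cxcl12 and Ackr3, called in right atrium. They run from 250 bases before to 50 bases after the annotated start (RefSeq, GRCm38.p6) and are printed 5′ to 3′ on the strand of the gene. The AHR core motif GCGTG and TATAAA, searched on both strands, are in capitals. The positions are chr5:95956689-95956988 on the plus strand for Cxcl13, chr4:42756316-42756615 on the minus strand for Ccl19, chr6:117168285-117168584 on the plus strand for Cxcl12 and chr1:90203730-90204029 on the plus strand for Ackr3.
Cxcl13: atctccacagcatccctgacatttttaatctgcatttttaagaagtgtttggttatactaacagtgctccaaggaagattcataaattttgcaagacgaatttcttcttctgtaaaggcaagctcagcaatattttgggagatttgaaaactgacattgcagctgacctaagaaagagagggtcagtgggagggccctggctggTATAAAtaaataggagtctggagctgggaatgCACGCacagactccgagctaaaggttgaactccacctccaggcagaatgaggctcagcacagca
Ccl19: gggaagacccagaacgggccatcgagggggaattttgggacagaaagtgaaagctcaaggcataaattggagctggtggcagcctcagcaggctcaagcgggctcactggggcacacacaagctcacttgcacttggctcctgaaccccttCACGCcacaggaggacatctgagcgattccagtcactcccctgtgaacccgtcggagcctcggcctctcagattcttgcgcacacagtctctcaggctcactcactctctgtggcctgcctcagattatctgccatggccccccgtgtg
Cxcl12: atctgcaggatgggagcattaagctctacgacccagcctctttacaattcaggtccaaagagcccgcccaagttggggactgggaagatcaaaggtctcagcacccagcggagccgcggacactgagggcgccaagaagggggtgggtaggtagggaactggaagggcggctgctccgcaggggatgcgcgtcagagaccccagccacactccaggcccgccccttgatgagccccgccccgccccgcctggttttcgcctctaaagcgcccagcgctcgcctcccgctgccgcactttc
Ackr3: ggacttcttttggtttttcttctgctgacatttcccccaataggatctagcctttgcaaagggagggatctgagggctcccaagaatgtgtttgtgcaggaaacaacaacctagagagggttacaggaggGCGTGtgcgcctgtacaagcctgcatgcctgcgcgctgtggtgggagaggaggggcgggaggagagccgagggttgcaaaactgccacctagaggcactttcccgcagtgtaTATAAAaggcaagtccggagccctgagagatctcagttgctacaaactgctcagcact
Cxcl13 and Ackr3 each held 1 match to both motifs, Ccl19 held 1 AHR core and Cxcl12 held 0 of either. RefSeq gave 54 promoters for 47 of the 62 members. The AHR core stood in 22 of the 54 (40.7%, from 19 genes) and in 32.4% of all 32851 promoters of this length, and TATAAA in 27.8% against 13.6%. Such a match is a description of the letters in the window and says nothing about binding.

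The atria could be compared with each other only within limits. Over all libraries 0 of 45 members were called between right and left atrium, where 0.00632% of all genes were called. The edgeR test gave 5 members and 459 of 15824 genes at an unadjusted p under 0.05, and DESeq2 called 0 members. Without the doubted libraries edgeR called 0 of 47 members and 1 of 15997 genes. Leaving out, in a setting chosen after seeing the data, the doubted libraries and those whose Bmp10 went against the atrial side, 13 right and 14 left atrial libraries remained, and 10 members (8 with the equal Ccl21 rows counted once) were called against 4.89% of all genes. Cxcl13 then ranged from 20.4 to 87.2 CPM (median 45.3) in right atrium, from 1.68 to 24.5 (median 7.29) in left atrium and from 0 to 2.04 in ventricles, a log2 difference of 2.37 between the atria. The 3 chambers thus formed an order with a small overlap between the atria and another between left atrium and ventricles. The Ccl21 rows were lower in right atrium, with Ccl21a at 5.89 to 26.6 CPM (median 9.99) against 9.19 to 56.0 (median 31.5), a log2 difference of -1.41. Ackr3 was lower as well, at 48.7 to 97.0 CPM (median 69.3) against 63.9 to 142 (median 109), a log2 difference of -0.59. Cxcl16 was higher in right atrium (0.66), and Cxcl14 was lower (-0.67). In the ventricles Ccl21a ranged from 10.6 to 41.5 CPM (median 27.3). Right atrium against ventricles gave 21 called members in this setting, 14 higher and 7 lower (5 lower with the equal Ccl21 rows counted once), where 7817 of 16226 genes were called.

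Some members were raised in single libraries together with genes of other tissues, picked here after their values were seen. Left atrial library 64 (high-dose female) read 544 CPM over the thymus list and library 26 (high-dose male) 98.1, while no other library exceeded 18.8. Rag1, the recombinase of developing lymphocytes, stood at 204 and 25.0 CPM in these libraries. Ccr9, which directs thymocytes, read 15.9 and 3.18 CPM there and at most 0.702 in the other 70 libraries. Its ligand Ccl25 read 8.89 and 3.52 CPM against at most 1.15 elsewhere. Both members of this pair were thus highest in the same libraries. Right atrial library 15 (low-dose female) and left atrial library 21 (Ahr-/- male) carried airway genes, with Scgb1a1, the club cell secretoglobin, at 1777 and 685 CPM and the alveolar surfactant gene Sftpc at 0.7 and 0 CPM. The mucosal ligand Cxcl17 read 23.1 and 14.7 CPM in them and at most 2.97 elsewhere. Ccl28, another mucosal ligand, read 3.09 and 3.86 CPM. B cell genes were highest, with summed levels of 46.9 to 64.3 CPM, in 5 libraries in which Cxcr5 read 2.81 to 4.36 CPM against a median of 0.596 over all 72.

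**Figure D3:**
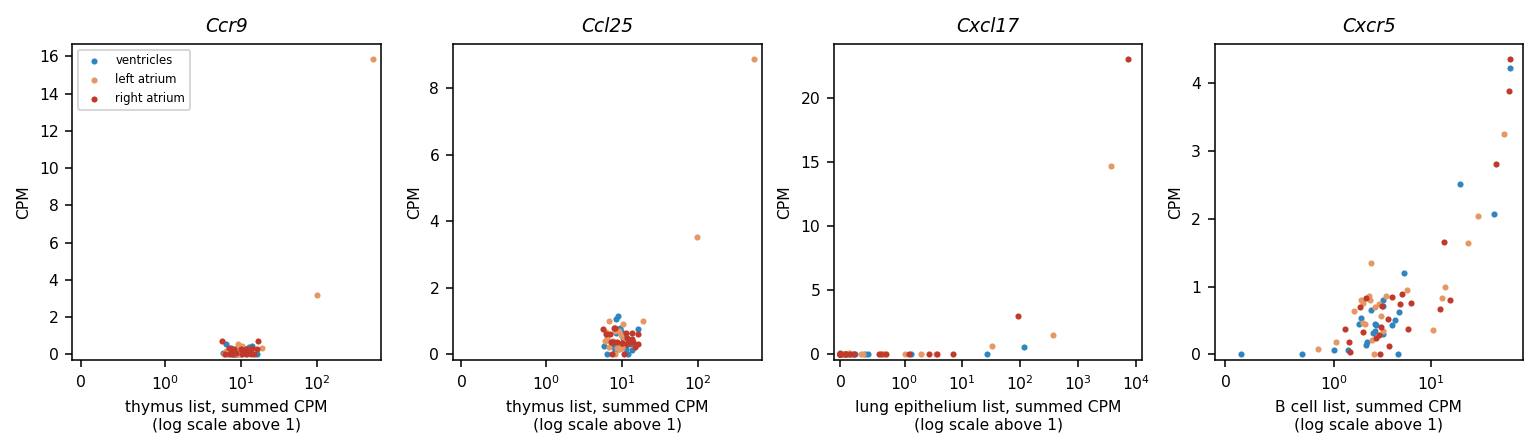
Ccr9, Ccl25, Cxcl17 and Cxcr5 (vertical axes, CPM) against the summed CPM of thymus, lung epithelium and B cell marker lists (horizontal axes, log scale above 1), with one point per library colored by chamber. Ccr9 and Ccl25 are highest in the libraries with thymus genes, Cxcl17 in those with airway genes, and Cxcr5 in those with B cell genes.

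The main question of the design was whether the offspring differed from naive Ahr+/+ mice in each chamber and sex, in 18 comparisons of 3 against 3 libraries. In 17 of them 0 of the 33 to 41 members tested were called by edgeR, and 0% of all genes were called in 16 of these and 0.0216% in the ventricles of Ahr-/- females. At an unadjusted p under 0.05 these 17 comparisons gave 0 to 7 members each, and 235 to 2613 genes each passed that limit. DESeq2 called 0 members in 13 of the 17, 1 in right atria of Ahr-/- females (Ccl6, 0.474% of all genes called), 3 in right atria of Ahr-/- males (0.116%), 1 in left atria of Ahr-/- females (Cx3cr1, 0.702%) and 1 in ventricles of low-dose females (Cxcl14, 5.22%). That last difference was 1.04 on the log2 scale. The remaining comparison was the high dose in female ventricles. Without the libraries against their label, and with the remaining libraries of all chambers in one fit, 0 members were called in 16 of the 17 comparisons that could still be fitted, with 0 to 8 members at an unadjusted p under 0.05. Genes were called in some of these, at 4.33% of all genes in left atria of high-dose males, 3.83% in ventricles of Ahr-/- males, 2.74% in left atria of low-dose females and 0.908% in left atria of Ahr-/- males. The remaining one, ventricles of high-dose males, then gave 2 of 53 members, Ccl27b (1.65 on the log2 scale, edgeR adjusted p = 0.00963) and Ccl8 (4.35, edgeR adjusted p = 0.0287), both higher, where 12% of all genes were called. The naive libraries left there held 1 and 2 counts of Ccl8, below the floor, so that the size of its difference is uncertain.

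In ventricles of high-dose females 3 of 32 members were called, against 23.7% of all 14006 genes. The median log2 difference was 0.06 over the members and 0.01 over all genes. Ackr3 read 86.2, 98.6 and 69.3 CPM in the high-dose libraries (84.7 ± 14.7, SD, n = 3) and 119, 122 and 124 in the naive ones (122 ± 2.18). Each exposed library lay below each naive one. The log2 difference was -0.54 (SE 0.14, edgeR adjusted p = 0.0154). Ccl9 read 4.49, 6.97 and 5.10 CPM (5.52 ± 1.29) against 9.47, 9.27 and 11.4 (10.0 ± 1.17), again without overlap, and fell by 0.89 on the log2 scale (SE 0.23, edgeR adjusted p = 0.0159). Ccl21a rose, with 38.1, 35.0 and 41.5 CPM (38.2 ± 3.26) against 24.5, 33.6 and 19.6 (25.9 ± 7.09), a log2 difference of 0.54 (SE 0.18, edgeR adjusted p = 0.0436). The lowest exposed library was only just above the highest naive one. The Ccl21b row, whose counts were higher but of uncertain level, was 0.35 higher on the log2 scale. It did not pass (edgeR adjusted p = 0.235), so that the call on this ligand rested on the Ccl21a row alone.

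These 3 calls depended on the libraries and on the fit. DESeq2, RLE scaling and a term for the library series kept all 3. With all 4 groups of female ventricles in one fit 0 members were called (4.96% of all genes), although the log2 differences were -0.54 for Ackr3, -0.89 for Ccl9 and 0.54 for Ccl21a, with edgeR adjusted p of 0.0873, 0.0926 and 0.135. Without the libraries against their label, among them naive replicate 1, and with all chambers in one fit, 0 members and 0% of all genes were called. The log2 differences were then -0.58, -0.96 and 0.47, with edgeR adjusted p of 0.414, 0.460 and 0.864. Libraries 1 to 48 alone, 2 against 2, lost all 3 calls as well, at -0.40 for Ackr3, -0.74 for Ccl9 and 0.32 for Ccl21a (edgeR adjusted p = 0.0670, 0.118 and 0.267). The member called in that setting, where 12.6% of all genes were called, was Ccl12, which draws monocytes, with a log2 difference of -4.81 (edgeR adjusted p = 0.0489). The high-dose libraries there held 0 and 1 counts of Ccl12, below the floor, against 13 and 13 in the naive ones. In replicate 3, left out there, the high-dose library held 5 counts and the naive one 3. Leaving out single libraries gave 1 to 6 calls: 6 without naive replicate 2 (4 with the equal Ccl21 rows counted once) or high-dose replicate 2, and 1 without high-dose replicate 1 or 3. Ackr3 passed in each of these (edgeR adjusted p = 0.00478 to 0.0493), whereas Ccl9 (0.00685 to 0.0621) and Ccl21a (0.0195 to 0.160) did not always pass.

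**Figure D4:**
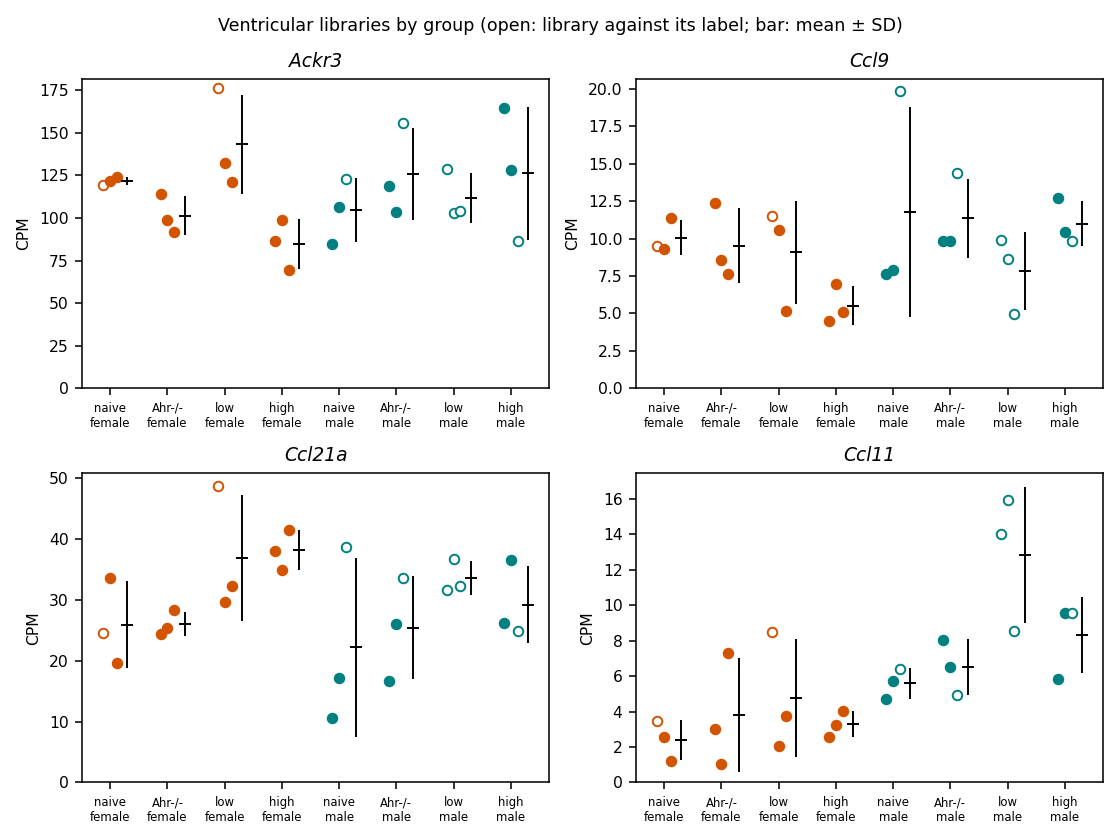
CPM of Ackr3, Ccl9, Ccl21a and Ccl11 in each of the 24 ventricular libraries by group and sex, with open points for libraries against their label and a black mark with bars for the mean ± SD of each 3. In females the 3 high-dose libraries lie below the naive ones for Ackr3 and Ccl9 and above them for Ccl21a, while in males the ranges of these 2 groups overlap for all 3 genes, and their filled points alone do not.

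In male ventricles the groups overlapped only through 2 libraries, replicate 3 of each group, which went against both their sex and their chamber label. Ackr3 read 164, 128 and 86.3 CPM in high-dose males and 85.0, 106 and 123 in naive males. Ccl9 read 12.7, 10.4 and 9.85 CPM against 7.63, 7.87 and 19.9, and Ccl21a 26.3, 36.5 and 24.9 against 10.6, 17.2 and 38.7. In each triple the third value is the doubted library. All 3 members overlapped between the groups with these libraries, and without them both high-dose males read above both naive ones for all 3. The log2 differences were then 0.56 for Ackr3, 0.53 for Ccl9 and 1.12 for Ccl21a, and none passed (edgeR adjusted p = 0.369, 0.687 and 0.529). The test of the difference between the sexes, females minus males, gave a log2 value of -0.82 for Ackr3 (unadjusted p = 0.0277, edgeR adjusted p = 0.952) and unadjusted p of 0.126 for Ccl9 and 0.808 for Ccl21a. Without the doubted libraries it gave -1.15 for Ackr3 (edgeR adjusted p = 0.341), -1.49 for Ccl9 (0.513) and -0.65 for Ccl21a (0.921). With libraries 1 to 48 alone it gave -0.97 (edgeR adjusted p = 0.0696), -1.27 (0.0934) and -0.81 (0.245), and the member called there, where 3.6% of all genes were called, was Ccl27b (-2.04, edgeR adjusted p = 0.0338). With both sexes in one fit Ackr3 was -0.14 on the log2 scale (edgeR adjusted p = 0.657). Both sexes without the doubted libraries, a setting chosen after seeing the data, gave 4 called members, the Ccl21 rows (2 with equal rows counted once), all higher by 0.70 to 0.77 on the log2 scale, where 19.2% of all genes were called. Within the first series of libraries (numbers 1 to 48), 2 against 2, the fit gave 9 called members in high-dose males (7 with equal rows counted once), where 15.9% of all genes were called. This setting left out the 2 libraries of these groups that went against their label. All 9 were higher, among them Ccl8 (4.33 on the log2 scale), Ccl27b (1.66) and the Ccl21 rows (1.14 to 1.26). For Ccl8 the naive libraries held 1 and 2 counts, below the floor.

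Genes around the chemokines also changed in ventricles of high-dose females, where 23.7% of all genes were called. Of 36 chemokine signaling genes tested 4 rose, with log2 differences of 0.51 for the G protein gene Gnb2, 0.45 for the receptor kinase gene Grk6, 0.62 for Akt1 and 0.70 for the kinase gene Mapk3, and Cdc42 fell by 0.46, so that 5 of 36 were called. Their median was 0.10. Of 13 inducers tested Relb (1.14) and Nfkb2 (0.71), of the noncanonical NF-kappaB arm, rose, and the bacterial sensors Tlr4 (-1.26) and Tlr2 (-0.79) fell. Of 9 genes that clear or present chemokines Sdc4 rose by 0.60, and Ext1 and Adam10 fell. Without the libraries against their label 0% of all genes were called, these lists included. Marker sums also differed, with mesothelium genes at 21.1 to 28.2 CPM against 10.9 to 15.0 in naive libraries, monocyte genes at 27.8 to 36.5 against 42.3 to 51.0 and endothelium genes at 968 to 1065 against 705 to 934, while lymphatic endothelium genes overlapped (86.3 to 111 and 95.6 to 135) with Prox1 lower (-0.80). Cardiomyocyte genes did not overlap either, at 62983 to 99425 CPM against 37200 to 45300, with Myh6, Tnnt2, Actc1 and Tnni3 called higher and Ryr2 lower. The smooth muscle genes Myh11 (0.87) and Tagln (1.01) and the macrophage genes C1qa (0.96) and C1qc (0.55) were also called higher. The endothelium genes Tie1 (0.70) and Vwf (0.47) were called higher and Emcn (-0.66) lower. Of the fibroblast genes Col1a2 (0.74) was called higher, and Dcn (-0.47) and Lum (-0.89) lower. Their part in the values of Ackr3, Ccl9 and Ccl21a was not tested.

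Among Ahr-/- libraries the macrophage members carried the smallest unadjusted p-values, and none passed the adjusted threshold in edgeR. Cx3cr1 read 6.00, 11.1 and 7.22 CPM in right atria of Ahr-/- males and 1.02, 1.52 and 3.13 in naive males, a log2 difference of 2.09 (unadjusted p = 0.0012, edgeR adjusted p = 0.821). In left atria of females it read 9.35, 8.81 and 6.93 CPM against 2.43, 0.49 and 3.41, a difference of 1.99 (unadjusted p = 0.0092, edgeR adjusted p = 0.359). In ventricles of females it read 4.82, 6.64 and 4.64 CPM against 2.60, 2.54 and 2.79, a difference of 1.01 (unadjusted p = 0.0045, edgeR adjusted p = 0.503). None of these 3 overlapped. The differences in the other 3 were 0.66 in right atria of females, 0.91 in left atria of males and 1.04 in ventricles of males, so that the Ahr-/- mean was higher in all 6, in tissues that came from the same hearts. Without the libraries against their label, which include 2 of the 3 Ahr-/- libraries of female left atria, the 6 log2 differences ran from 0.93 (right atria of females) to 2.09 (right atria of males), and edgeR again called 0 members in each.

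Ccl6 read 34.9, 41.3 and 125 CPM in right atria of Ahr-/- males against 16.2, 19.6 and 20.1 in naive males (log2 difference 1.85, edgeR adjusted p = 0.821). In right atria of females it read 17.8, 67.8 and 118 CPM against 21.5, 14.1 and 11.3 (2.11, edgeR adjusted p = 0.817). The males did not overlap and the females did, and 1 or 2 high libraries carried each mean. Without the libraries against their label, 1 Ahr-/- and 2 naive ones in females, the female difference was 0.98 and the male one 1.85. Ccl9 followed with a single high library in each labelled sex, at 60.1 CPM in females and 102 in males, where the other Ahr-/- libraries read 9.94 to 23.9 CPM. The library at 60.1 CPM went against its female label, with Xist at 0.124 CPM and a Y-linked sum of 287 CPM. Without it the Ahr-/- females read 9.94 and 23.9 CPM. DESeq2 called Cx3cr1 and Ccl6 in right atria of males. Macrophage genes summed to 342 to 469 CPM in these libraries against 320 to 371 in naive ones, and in left atria of females to 317 to 342 against 275 to 281. Their part in the values of Cx3cr1 and Ccl6 was not tested. In left atria of females the libraries numbered 1 to 48 alone, 2 against 2, gave 11 called members (9 with the equal Ccl21 rows counted once), where 18.4% of all genes were called, among them Cx3cr1 (2.64) and Cxcl13 (-2.75). Both Ahr-/- libraries of that setting went against their label, so that it cannot be told apart from the doubt about them.

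**Figure D5:**
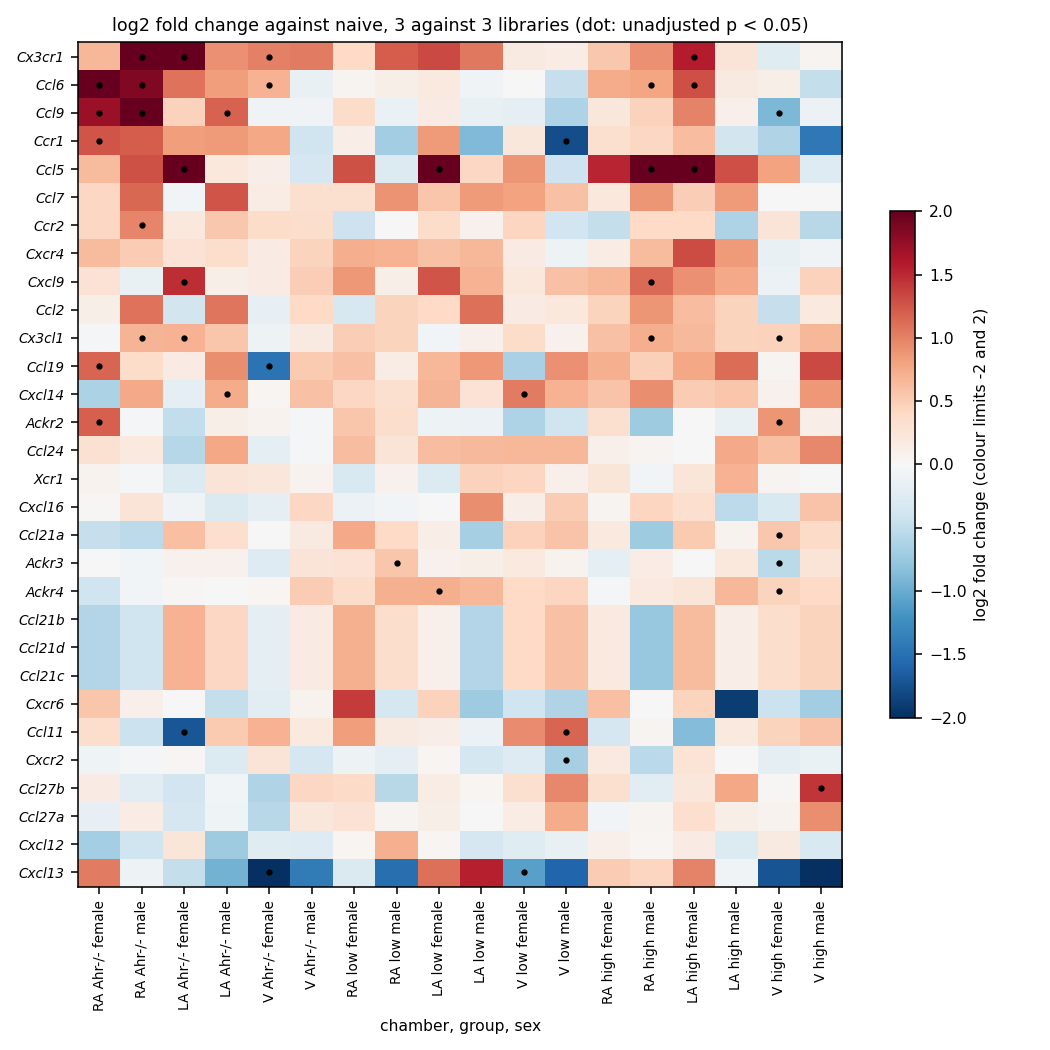
Log2 differences from naive Ahr+/+ mice of 30 members tested in all 18 comparisons, as a color scale limited to -2 and 2, with 1 column per comparison and a dot where the unadjusted p was under 0.05. Dots stand in 43 of 540 cells, 21 of them in the 180 cells of Ahr-/- mice, and few rows keep 1 color across a whole treatment. Of the 13920 to 14995 genes tested per comparison, 235 to 5118 passed the same limit. In the comparisons of Ahr-/- mice 521 to 2029 genes passed it.

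Few differences between the labelled sexes were called. In ventricles 1 of 41 members was called, against 0.312% of all genes. Ccl11, the eosinophil attractant eotaxin, ranged from 1.03 to 8.50 CPM in females (median 3.14, n = 12) and from 4.69 to 15.9 in males (median 7.29, n = 12). Of the 12 female libraries 10 lay below every male one, and the log2 difference of females from males was -1.19 (SE 0.25, edgeR adjusted p = 0.0367). Without the doubted libraries the ranges were 1.03 to 7.32 CPM in 10 female and 4.69 to 9.56 in 6 male libraries, and the difference was of the same size but did not pass (-1.16, edgeR adjusted p = 0.143). It was -0.85 in left atrium (edgeR adjusted p = 0.529) and -0.10 in right atrium, and whether the chambers differed was not tested. DESeq2 called 3 members in ventricles, all lower in females, where 1.87% of all genes were called, adding Ccl19 and Cxcl13. That fit counted ventricles 53, 59, 65 and 71 as male although their Xist and Myl4 went against the label. These held 62 to 693 counts of Cxcl13, against at most 33 in ventricles labelled female. DESeq2 was not run without them, and edgeR without the doubted libraries called 0 of 40 members. In right and left atrium edgeR called 0 of 43 members, with 0.0129% and 0.103% of all genes called, 6 and 4 members had an unadjusted p under 0.05, and DESeq2 called 0. An unadjusted p under 0.05 was reached in edgeR by 599 of 15532 and 1402 of 15533 genes. Without the doubted libraries edgeR called 0 of 45 and 0 of 47 members there, with 33 of 15829 and 12 of 15882 genes called. In the 9 tests of a sex difference in the response to Ahr loss or TCDD edgeR called 0 members and 0% of all genes, 0 to 2 members had an unadjusted p under 0.05, and DESeq2 called 0. Per test 135 to 703 genes had such an unadjusted p in edgeR. Each of these tests held libraries against their label. Without them, and with all chambers in one fit, edgeR called 0 members wherever the test could be fitted. It then called 1 of 17502 genes in ventricles at the high dose and 0 elsewhere. With libraries 1 to 48 alone, beside Ccl27b above, 110 of 15568 genes were called for left atria of Ahr-/- mice. Both female Ahr-/- libraries there went against their label. A test without a call does not show that the sexes responded alike.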

How the data were processed

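The deposited table holds raw counts per gene for 72 libraries, which the authors made from poly-A selected, single-read 50-base Illumina reads with CASAVA 1.8, TopHat on mm10 and Bioconductor packages counting on coding regions. Strand handling, multi-mapping and annotation release are not given in the sources used here. Of 24237 rows 24162 were matched to a symbol. The members and gene lists were chosen with earlier results of these data known.

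Counts were tested with edgeR 4.0.16 in R 4.3.3 (quasi-likelihood, robust; filterByExpr with min.count 10 and min.total.count 15; TMM scaling), with Benjamini-Hochberg adjustment over all genes tested and a call at 0.05. The 18 group comparisons used 6 libraries each, the chamber contrasts all 72, with labelled sex and treatment as terms, and the sex contrasts 24. CPM values were TMM-scaled, and per-kilobase values divided them by exon length, and by coding length, with bases of all annotated isoforms joined. DESeq2 1.42.0, other scalings, filters, series and left-out libraries were alternatives. The fits were tested on simulated data. Values were given for members called in a group comparison, up to 6 called members per chamber or sex contrast, the 6 ligands and 6 receptors of highest level per kilobase of exon, the atypical receptors, Xcl1, Xcr1 and textbook pairs. Members named beyond this rule (Ccl24, Ccl27a, Cxcl5, Cxcl17, Ccl28, Ccl12, and Ccl8 and Ccl27b in male ventricles) were chosen after their values were seen. Depth was 11873417 to 28789382 counts per library. Values of 1 member are not reported here.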

Additional observations from a re-analysis of the deposited data

How the results depend on the processing

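Of 400 alternative counts, nearly all of called members, 362 stayed within 1.5 times the count reported and 38 moved. A count of 0 that stayed at 0 was scored as unmoved, and most of the 362 were of this kind. Only right and left atrium against ventricles, ventricles of high-dose females and sex in ventricles had a reported count above 0. The 362 are therefore no measure of how stable the calls were. Of 505 alternative log2 differences 417 kept direction and side of the threshold, 75 lost the call, 8 gained it and 5 reversed. With DESeq2 the counts became 1 in right atria of Ahr-/- females, 3 in right atria of Ahr-/- males, 1 in left atria of Ahr-/- females, 1 in ventricles of low-dose females and 3 for sex in ventricles. With libraries 1 to 48 only they were 11 in left atria of Ahr-/- females, 2 in left atria of high-dose females, 1 (Ccl12), 9 and 2 in ventricles of high-dose females, high-dose males and low-dose males, 1 (Ccl27b) for the sex difference of the high dose in ventricles and 17 for left atrium against ventricles. Leaving out single libraries gave 1 to 6 calls in ventricles of high-dose females, 0 to 2 in those of Ahr-/- females (2 without Ahr-/- replicate 1) and 0 to 1 in those of low-dose females (1 without low-dose replicate 2). In ventricles of high-dose females all 4 groups in one fit gave 0, both sexes in one fit 1, both sexes without the doubted libraries 4, and no doubted libraries 0. In those of high-dose males the same last 3 settings gave 1, 4 and 2. With libraries 49 to 72 or with naive mice only, both atria against ventricles gave 0. Left atrium against ventricles gave 9 by library size only and 21 without doubted libraries, with or without the limit on Bmp10, and right against left atrium gave 10 with that limit. Sex in ventricles gave 0 without the doubted libraries. At the study's threshold of 0.0001 right atrium against ventricles kept 2 calls, and left atrium against ventricles, high-dose female ventricles and sex in ventricles 0. The reversed log2 differences of right atrium against ventricles were Ccl27b (-0.024) and Ccl27a (-0.10) with libraries 49 to 72 only and Ccl6 (-0.0023) and Ccl9 (-0.23) with naive mice only, and Cxcl14 reached 0.029 with libraries 49 to 72 only. Ranked by CPM without division by length, 7 of the 12 highest members were the same, and per kilobase of coding sequence, a scale chosen after seeing the data, 10 were. The cause was not tested, apart from the smaller number of libraries that several of these settings hold by construction. With libraries 49 to 72 only, the left atrial and ventricular libraries of males all went against their chamber label. Ventricles of low-dose males could not be refitted without doubted libraries, since all 3 went against their label. No paired analysis was possible because the labels give no replicate numbers that link libraries.

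With 3 libraries a group and 20 doubted libraries, members near the floor of 0.0955 to 0.259 CPM cannot be compared at this depth.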
